A study of Mus musculus with 24 samples.

Results

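The 9 main genes of polyamine metabolism and the pseudogene Gm7993, a genomic copy of the ornithine decarboxylase mRNA, were followed through heart, stomach, muscle and tongue of Trex1-KO mice, some of which received SN-011, an antagonist of STING. The 10 genes were those rows of the count data whose Ensembl identifier carries the symbol Odc1, Srm, Sms, Amd1, Oaz1, Oaz2, Azin1, Sat1, Smox or Gm7993 in GENCODE M21, out of 54532 genes in all. They were chosen with the counts of these samples already known. Their differences between SN-011 and control samples and between tissues are therefore given as descriptions, and the calls printed with them support nothing.

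The polyamines putrescine, spermidine and spermine are small cations that bind nucleic acids and are needed for cell growth and translation. Odc1, ornithine decarboxylase, makes putrescine from ornithine. Amd1, S-adenosylmethionine decarboxylase, supplies aminopropyl groups. Srm, spermidine synthase, adds such a group to putrescine, and Sms, spermine synthase, adds such a group to spermidine. The antizymes Oaz1 and Oaz2 bind ornithine decarboxylase and deliver it to the proteasome when polyamines are plentiful, and the antizyme inhibitor Azin1 sequesters antizyme. Sat1 acetylates spermidine and spermine for export or breakdown, and Smox oxidizes spermine back to spermidine.

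Gm7993 (ENSMUSG00000107092) is annotated as a processed pseudogene on the plus strand of chromosome 5 of GRCm38, from 95974240 to 95975623, and overlaps no other annotated gene. Odc1 (ENSMUSG00000011179) lies on chromosome 12, from 17544794 to 17551505. The 1384 bases of Gm7993 aligned to positions 490 to 1872 of the 2208-base Odc1 transcript, whose coding part runs from 490 to 1875, and the aligned part spans 9 exon junctions of Odc1 that run on without an intron in Gm7993. Of the aligned positions 1335 were identical, with 31 substitutions, 17 bases missing from Gm7993 and 18 added, an identity of 95.3%. A processed pseudogene arises when an mRNA is copied back into DNA and inserted elsewhere in the genome, which leaves it without introns and usually without its parent's promoter. Read in the frame of Odc1, the first stop codon of Gm7993 falls at codon 30, against 461 codons in Odc1. The 2 sequences below, with the 7 substituted bases in capitals, are shown because they hold the densest run of substitutions by which a read can be placed on Gm7993 or on Odc1. The Gm7993 sequence is chr5:95975117-95975176 on the plus strand, and the Odc1 sequence is the coding stretch at positions 1366 to 1425 of the transcript.
Gm7993: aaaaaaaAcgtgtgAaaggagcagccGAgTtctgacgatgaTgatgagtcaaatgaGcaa
Odc1: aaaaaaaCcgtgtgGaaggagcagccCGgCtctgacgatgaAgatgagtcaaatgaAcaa

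The longest stretch that both share without a difference has 167 bases and lies at chr5:95974700-95974866 in Gm7993. It is shown because a read that falls wholly inside it cannot be assigned to either gene by its sequence.
Shared by Gm7993 and Odc1: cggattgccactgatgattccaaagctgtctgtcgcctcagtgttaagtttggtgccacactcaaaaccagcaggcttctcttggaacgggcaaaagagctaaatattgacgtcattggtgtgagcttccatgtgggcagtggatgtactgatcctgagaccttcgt
Of the 1235 windows of 150 bases along Gm7993, 18 (1.46%) held no difference from Odc1, and the median window held 3 differences with a range of 0 to 43. Each missing or added base was counted as a difference here, and the whole alignment held 31 substitutions, so the highest windows include such bases.

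All mice, controls included, lacked Trex1, the DNA exonuclease whose loss activates the cGAS-STING pathway, on a C57BL/6J background, and no wild-type group was used here. There were 3 control and 3 SN-011 samples for each of the 4 tissues, 24 in all. The sample labels give SN-011 at 5 mg/kg, 3 times a week for 4 weeks, with untreated controls, whereas the study's methods describe daily intraperitoneal injection at a higher dose for a shorter time, to mice of about a month of age, with vehicle for the controls. Samples were grouped by tissue and treatment, which are the same in both sources. It is not stated whether samples with the same number came from the same mouse, so p-values measure the spread between these samples only.

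The total count per sample was 14253416 to 18443329, and 3 counts, taken as the lowest detectable number, corresponded to 0.163 to 0.210 CPM, counts scaled to the size of the library. Trex1 itself had 0 counts in all 24 samples, which does not check the genotype, since it overlaps another gene on the same strand. Counts above 0 were found on 11546 genes in muscle SN-011 replicate 2, and on 19798 to 24264 in all other samples. In each tissue control replicate 1 had 3060 to 13811 counts of Xist and 0 to 3 of Ddx3y, whereas the other 20 samples had 0 to 20 of Xist and 825 to 1898 of Ddx3y, so each control group held a sample with female levels of these genes and each SN-011 group held none. The defining markers of each labelled tissue were detected in it. In heart, muscle and tongue, the 5 gastric gland markers, all detected in each group, summed to 181 to 1977 CPM in control replicates 2 and 3 and to 3.71 to 48.2 CPM in the other 12 samples.

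Gm7993 was counted in all 12 control samples and was nearly absent from all 12 SN-011 samples. In the heart it had 339, 180 and 469 counts in the control samples and 3, 2 and 2 counts in the SN-011 samples. In the stomach it had 179, 299 and 1076 counts in the control samples and 0, 1 and 0 counts in the SN-011 samples. The lowest control sample thus stood far above the highest SN-011 sample in each of these tissues. In the muscle it had 538, 643 and 916 counts in the control samples and 33, 4 and 23 counts in the SN-011 samples. In the tongue it had 269, 256 and 608 counts in the control samples and 5, 1 and 1 counts in the SN-011 samples. The muscle was thus the tissue in which the most Gm7993 was counted after SN-011, and 2 of its 3 SN-011 samples held more of it than any SN-011 sample of the other tissues.

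Over all tissues there were 5772 counts of Gm7993 in control samples and 75 in SN-011 samples. With counts summed over the 3 samples and scaled for depth, the control level was 126 times the SN-011 level in heart (95% exact counting interval 60.8 to 314), 1597 times in stomach (286 to 63103, on 1 SN-011 count), 28.1 times in muscle (21.7 to 36.9) and 159 times in tongue (77.0 to 397). These intervals cover counting error only, and the counts of read pairs carry no molecular identifiers. In control samples the mean was 18.7 ± 6.33 CPM in heart, 30.2 ± 23.8 in stomach, 37.0 ± 8.92 in muscle and 23.3 ± 12.7 in tongue (SD, n = 3). Gm7993 passed the filter on low counts in each tissue through its control samples alone, so a difference was built into its passing. The control replicates numbered 1, which alone had Xist counts and in which the gastric markers were not raised, had 339, 538 and 269 counts of Gm7993 in heart, muscle and tongue, and the controls numbered 2 and 3 had 180 to 916 in these tissues. Of 13198 genes that passed the filter in all 4 tissues, 90 (0.682%) had every SN-011 sample below every control sample in each tissue, Gm7993 among them, and 46 (0.349%) had every SN-011 sample above. Ordered by the tissue in which the fitted fall was smallest, Gm7993 stood at position 1 of the 90, at −4.84 on the log2 scale in the muscle, followed by Cxcl11 at −1.63 in the tongue and Cxcl10 at −1.49 in the heart, which encode chemokines induced by interferon. Fitted values of genes with so few counts depend on the prior count and are no bound.

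**Figure D1:**
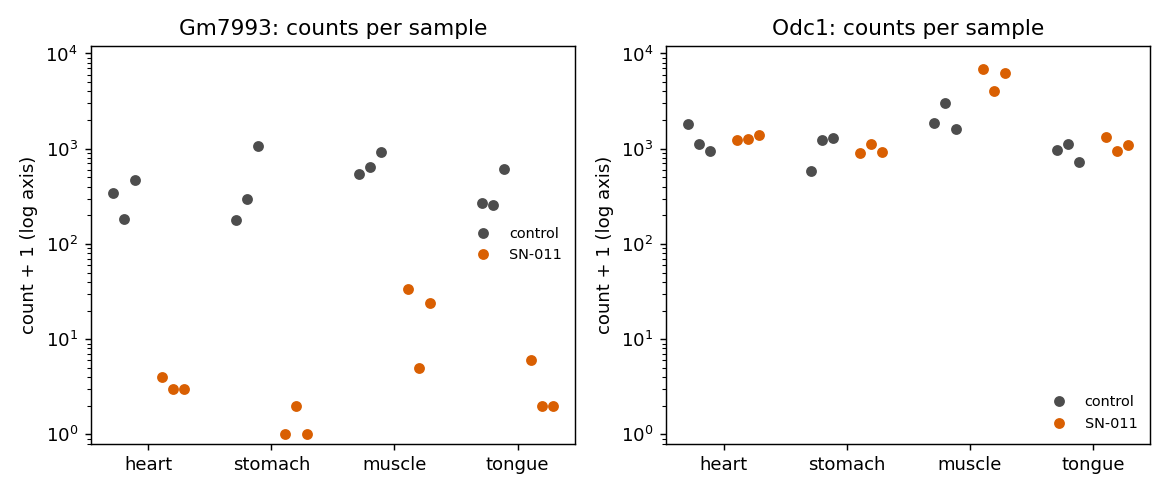
Counts per sample of Gm7993 (left) and Odc1 (right) in the 4 tissues, plotted as count + 1 on a log axis, with grey points for the 3 control samples and orange points for the 3 SN-011 samples of each tissue. Gm7993 lies at 179 to 1076 counts in the control samples and at 0 to 33 in the SN-011 samples, while Odc1 lies in the same range in both groups except in the muscle.

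Odc1 did not show the pattern of its copy. It had 1835, 1107 and 954 counts in control hearts and 1228, 1267 and 1406 in SN-011 hearts, and the groups overlapped. In the stomach it had 587, 1228 and 1296 counts in the control samples and 901, 1110 and 929 in the SN-011 samples, again with overlap. In the tongue it had 980, 1110 and 722 counts in the control samples and 1335, 935 and 1082 in the SN-011 samples, which overlapped too. Gm7993 amounted to 16.3% to 84.2% of the Odc1 count in the 12 control samples and to 0% to 0.48% in the 12 SN-011 samples. When the counts of Odc1, Gm7993 and the 18 other annotated Odc1 pseudogenes were summed, the log2 fold change of SN-011 against control moved from −0.08 to −0.61 in the stomach and from 0.27 to −0.23 in the tongue. In the heart it moved from 0.16 ± 0.21 to −0.15 ± 0.16 (SE), a change of sign, and in the muscle from 1.68 ± 0.30 to 1.28 ± 0.24.

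Before turning to SN-011, the tissues were compared in the 12 control samples, to ask where the polyamine genes are expressed. Levels between genes were compared as CPM per kilobase of annotated exon, with all 24 samples scaled together. Oaz1 had the highest level of the 10 genes, with a mean over tissues of 188 CPM per kilobase, and Azin1 had the lowest. Oaz2 followed at 62.0, Amd1 at 54.0, Sat1 at 49.6, Smox at 44.6 and Odc1 at 26.7, whereas Gm7993 stood at 22.1, Srm at 14.8 and Sms at 11.6. The order of the genes from Oaz2 to Smox, and that of Srm and Sms, changes when the longest transcript is used as the length.

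Skeletal muscle stood apart in controls. Amd1 was at 165 ± 111 CPM per kilobase in the muscle and at 22.2 ± 7.03 in the stomach, 16.7 ± 4.93 in the tongue and 12.2 ± 2.82 in the heart (SD, n = 3). Smox was at 151 ± 78.3 in the muscle, 15.8 ± 7.76 in the tongue, 8.47 ± 0.511 in the heart and 3.02 ± 1.13 in the stomach. For these genes of spermidine synthesis and spermine oxidation the 3 muscle samples lay above all samples of the other tissues, although muscle control replicate 1 was far below the other muscle controls in both. Sms was at 31.1 ± 2.98 in the muscle and at 4.68 to 5.58 in the other tissues, which overlapped among themselves. Oaz2 was at 143 ± 16.2 in the muscle, 48.3 ± 5.93 in the heart and 43.3 ± 5.89 in the tongue, and at 13.7 ± 3.10 in the stomach, with overlap between heart and tongue only. Odc1 was at 56.8 ± 23.5 in the muscle and at 14.3 to 19.9 in the other tissues, and Oaz1 at 295 ± 13.6 in the muscle and at 144 to 161 elsewhere. In each of these 6 genes the muscle samples did not overlap with those of the next tissue.

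The opposite order was seen for Srm, Sat1 and, in part, Azin1. Srm was at 21.6 ± 1.64 CPM per kilobase in the tongue, 18.5 ± 8.86 in the stomach, 11.5 ± 0.492 in the heart and 7.69 ± 1.84 in the muscle, where it was apart from the heart. Sat1 was at 63.2 ± 14.6 in the tongue, 55.7 ± 3.18 in the stomach, 49.6 ± 7.70 in the heart and 30.0 ± 5.26 in the muscle, and only the muscle was apart from its neighbour. Azin1 was at 16.9 ± 4.77 in stomach, 10.1 ± 0.571 in heart, 7.78 ± 2.07 in muscle and 5.39 ± 0.251 in tongue, with overlap between muscle and tongue. Gm7993 was at 44.2 ± 11.5 in the muscle and at 12.1 to 17.9 in the other tissues, and each tissue overlapped with the next in its order.

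**Figure D2:**
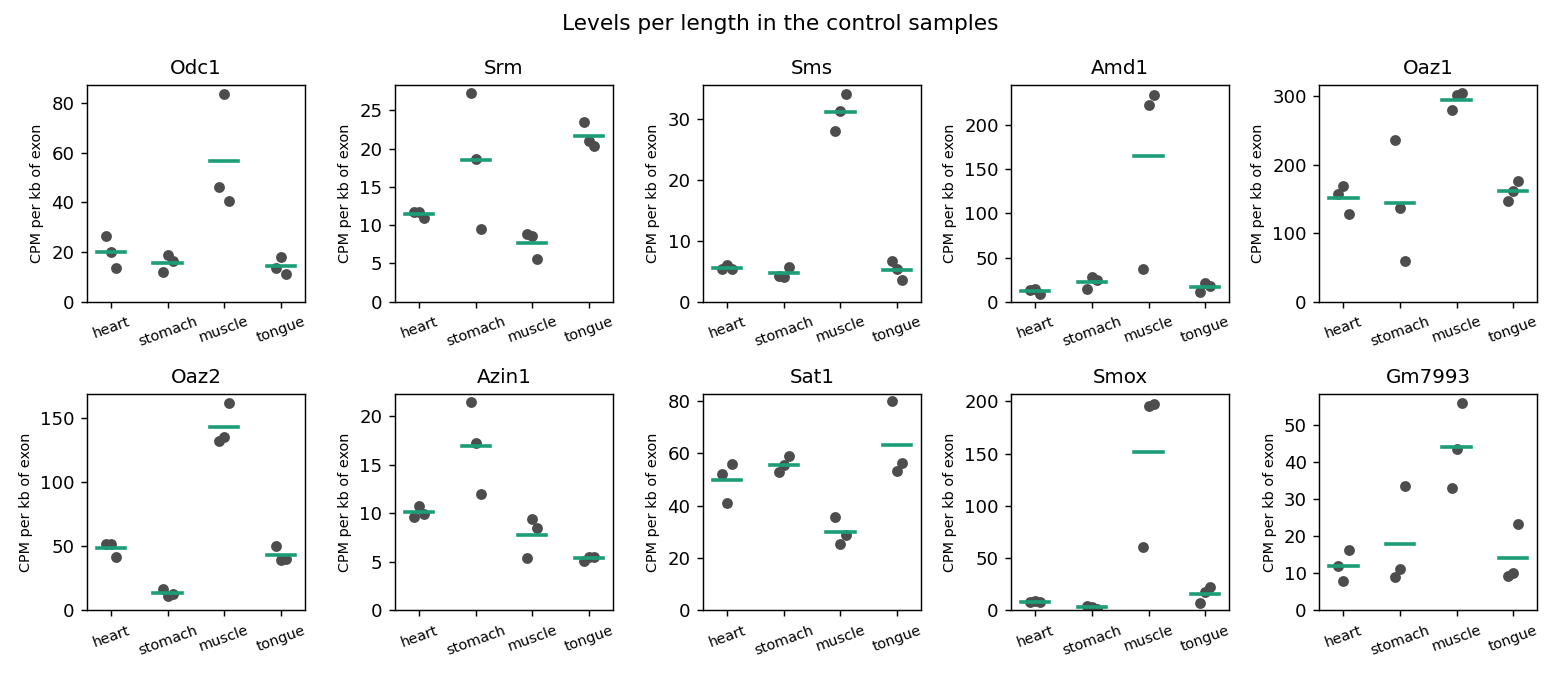
Level per length of the 10 genes in the 3 control samples of each tissue, in CPM per kilobase of annotated exon, with a point per sample and a green line at the mean (linear axes from 0, a different range for each gene). Amd1, Smox, Sms, Oaz2, Odc1 and Oaz1 have all 3 muscle samples above those of every other tissue.

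The control groups were contrasted in the joint edgeR quasi-likelihood fit of all 24 samples, with Benjamini-Hochberg adjustment over 19731 genes. All 10 members differed between stomach and muscle, where 51.6% of all genes did. Between muscle and tongue 9 of the 10 differed (38.1% of all genes) and between heart and muscle 8 (33.7%). Between heart and stomach 4 differed (42.5%), between stomach and tongue 3 (36.9%) and between heart and tongue 2 (29.1%). The members were chosen with these counts known, so the tissue differences and their p-values are descriptions, and nothing is read from the tallies. The log2 difference of stomach minus muscle was −5.65 ± 0.47 for Smox (SE, adjusted p = 3.87e-09), −3.38 ± 0.22 for Oaz2 (8.78e-11), −2.89 ± 0.47 for Amd1 (3.22e-05), −2.73 ± 0.20 for Sms (5.3e-10) and −1.85 ± 0.29 for Odc1 (1.99e-05). In the opposite direction, Srm was higher in the stomach than in the muscle by 1.26 ± 0.27 (adjusted p = 0.000513), Azin1 by 1.12 ± 0.24 (0.000589) and Sat1 by 0.89 ± 0.21 (0.00147). Between tissues other than muscle, Oaz2 was lower in the stomach than in the heart (1.82 ± 0.21 for heart minus stomach, adjusted p = 7.16e-07) and the tongue, and Azin1 was higher in the stomach than in the tongue (1.64 ± 0.24, 2.25e-05). The differences of Smox, Amd1, Sms, Oaz2 and Odc1 between the muscle and each other tissue were past the threshold under all 10 alternative settings. The calls for Oaz1, Sat1 and Gm7993 between heart and muscle were lost without control replicate 2, that for Sat1 also without control replicate 3, and that of Gm7993 between stomach and muscle (−1.30 ± 0.53, adjusted p = 0.047) was lost under 5 of the 10. That of Gm7993 between muscle and tongue was lost without control replicate 1 or 2, those of Oaz1 between the muscle and the stomach or tongue without control replicate 2, and the last also without SN-011 replicate 1 or 3. Between heart and stomach, the call for Srm was lost under 6 of the 10, among them the replicate block, and that for Azin1 without control replicate 1 or 2. Both calls between heart and tongue, for Srm and Azin1, were lost without control replicate 2. Same-numbered control samples of different tissues had a correlation of their deviations over 0.1 in 16 of 18 pairs (median 0.22), and the fit without a block treats them as independent. The median of all genes shifted by up to 0.23 on the log2 scale when DESeq2's size factors were used in place of TMM, for stomach against muscle. Library size without TMM was not among the settings of these tissue comparisons.

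SN-011 was then compared with control within each tissue, to ask what antagonizing STING changes in these genes. By edgeR's quasi-likelihood test, Gm7993 was called in the heart, 1 of 10 members against 0.848% of the 16151 genes tested, and 0 of 10 were called in the stomach (0.0% of 17031), the muscle (0.0141% of 14198) and the tongue (0.0% of 16587). At an unadjusted p under 0.05 there were 1, 3, 4 and 2 members in these tissues, beside 22.4%, 24.6%, 14.8% and 12.5% of all genes tested. With edgeR's exact test 1, 3, 2 and 1 members were called (5.68%, 10.8%, 3.37% and 1.53% of all genes), and with DESeq2 1, 3, 4 and 1 (8.43%, 14%, 6.2% and 2.52%). Nothing is read from these counts, since the members were chosen with the values known. The median log2 fold change of the 10 members was 0.11 in heart, −0.11 in stomach, 0.01 in muscle and 0.04 in tongue, beside −0.01, 0.00, −0.08 and −0.01 over all genes tested.

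**Figure D3:**
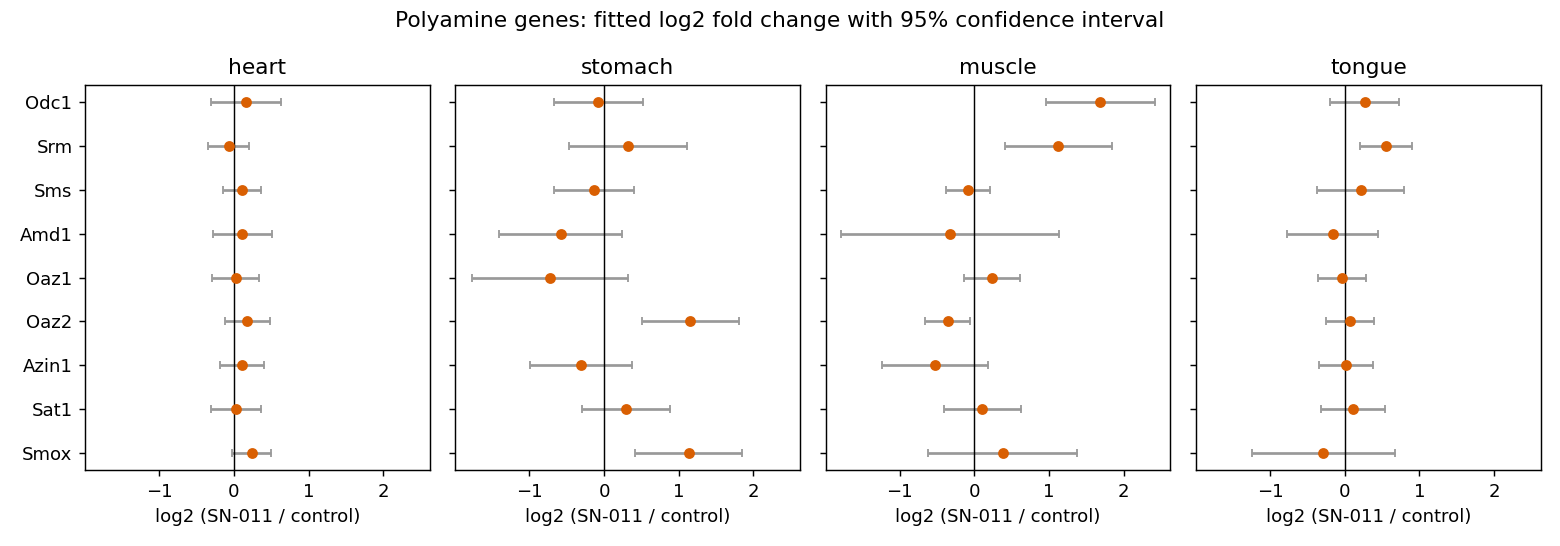
Fitted log2 fold change of SN-011 against control for the 9 polyamine genes in each tissue, with 95% confidence intervals from the edgeR fit (3 samples per group) and a line at 0. Odc1 and Srm in the muscle and Oaz2 and Smox in the stomach lie farthest above 0.

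Among the synthesis genes the largest difference was that of Odc1 in the muscle. It had 97.3, 172 and 82.2 CPM in the control samples and 446, 327 and 356 CPM in the SN-011 samples, so every SN-011 sample lay above every control sample. The fitted log2 fold change was 1.68 ± 0.30 (SE), and between 1.46 and 2.06 under all 13 alternatives. With the pseudogene counts summed, which is not among the 13, it was 1.28 ± 0.24, below that range. Without control replicate 1 it was 1.56, and without muscle SN-011 replicate 2 it was 1.78. In the other tissues Odc1 was at 0.16 ± 0.21 in the heart, −0.08 ± 0.26 in the stomach and 0.27 ± 0.20 in the tongue on the same scale, with overlapping groups.

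Srm, which makes spermidine, also stood higher in the muscle, at 8.81, 8.32 and 5.30 CPM in the control samples and 13.8, 21.0 and 13.9 CPM in the SN-011 samples, a log2 fold change of 1.12 ± 0.30. In the tongue it was at 45.0, 39.4 and 38.5 CPM in the control samples and 69.3, 52.4 and 58.4 CPM in the SN-011 samples, without overlap, and the log2 fold change was 0.55 ± 0.15. Srm was at −0.07 ± 0.12 in the heart and 0.31 ± 0.35 in the stomach, with overlap. Muscle SN-011 replicate 2, the sample with counts on the fewest genes, had the highest Srm level of that group, and without it the muscle value was 0.89. Without control replicate 1 it was 1.25 in the muscle and 0.63 in the tongue. Srm lies on chromosome 4, from 148591503 to 148594993.

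Sms, on chromosome X from 157443855 to 157492287, showed no separation of the groups in any tissue, with log2 fold changes from −0.14 to 0.22. Its near copy Sms-ps, a processed pseudogene on the same chromosome, is identical to it over 1101 bases. The share of Sms-ps counts against Sms was 2.95% to 21.9% in 23 samples and 0.0690% in muscle SN-011 replicate 2, so the Sms counts are uncertain by the reads that cannot be placed.

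Amd1, whose product commits S-adenosylmethionine to polyamine synthesis, lies on chromosome 10 from 40287458 to 40302186. It overlapped between the groups in every tissue. In the muscle it was at 82.1, 478 and 494 CPM in the control samples and at 267, 335 and 240 CPM in the SN-011 samples, so that the SN-011 samples fell in the gap between control replicate 1 and the other controls. The muscle log2 fold change of −0.33 ± 0.61 became −0.80 without control replicate 1. This replicate is also the one with Xist counts, and the 4 adipocyte markers, all detected, summed to 2030 CPM in it against 464 and 587 CPM in the other muscle controls, and to 962 to 2429 CPM in the SN-011 samples. The part of sex and fat tissue in the difference was not tested. Amd2, a gene 99.6% identical to Amd1 over 3202 bases, had 0.0737% to 4.70% of the Amd1 count.

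Of the antizyme genes, Oaz2, on chromosome 9 from 65668001 to 65690300, stood higher after SN-011 in the stomach and lower in the muscle. In the stomach it was at 59.5, 39.1 and 48.5 CPM in the control samples and at 140, 82.4 and 105 CPM in the SN-011 samples, a log2 fold change of 1.15 ± 0.28. In the muscle it was at 244, 244 and 287 CPM in the control samples and at 201, 184 and 219 CPM in the SN-011 samples, a log2 fold change of −0.36 ± 0.13. The groups did not overlap in either tissue, and in the heart (0.18 ± 0.13) and the tongue (0.07 ± 0.14) they did. Without control replicate 1 the values were 1.29 in the stomach and −0.41 in the muscle. Oaz1, the member with the highest level, on chromosome 10 from 80826656 to 80829290, was at 0.02 ± 0.14 in the heart, 0.23 ± 0.16 in the muscle and −0.03 ± 0.14 in the tongue. In the stomach it was at 703, 415 and 189 CPM in the control samples and at 288, 245 and 257 CPM in the SN-011 samples, so the control samples alone spanned more than the whole SN-011 group. Azin1, on chromosome 15 from 38487427 to 38519266, overlapped between the groups in all tissues, with the lowest value in the muscle, −0.53 ± 0.30. Its first exon overlaps an antisense gene, Gm49077, which had at most 25 counts in any sample.

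The catabolic gene Smox, on chromosome 2 from 131491496 to 131525922, stood higher in the stomach after SN-011. It was at 17.3, 16.5 and 8.29 CPM in the control samples and at 33.5, 29.2 and 29.4 CPM in the SN-011 samples, a log2 fold change of 1.13 ± 0.31, or 1.28 without control replicate 1. In the heart Smox was at 35.9, 39.6 and 35.0 CPM in the control samples and at 42.2, 40.4 and 47.8 CPM in the SN-011 samples, without overlap, at a log2 fold change of 0.24 ± 0.12. In the muscle it was at 146, 459 and 458 CPM in the control samples and at 443, 512 and 427 CPM in the SN-011 samples. Here again control replicate 1 alone stood low, and the log2 fold change of 0.38 ± 0.41 became −0.00 without it. In the tongue it had 605, 1230 and 1668 counts in the control samples and 1388, 715 and 801 in the SN-011 samples, and the log2 fold change was −0.28 ± 0.41. Sat1, on chromosome X from 155213132 to 155216449, overlapped between the groups in every tissue, with log2 fold changes of 0.03 to 0.30.

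Beside Oaz2 and Smox in the stomach, the markers of squamous epithelium, the lining of the forestomach and tongue, also lay apart. The 4 markers, all detected, summed to 85.5 to 199 CPM in the stomach controls and to 359 to 1165 CPM in the stomach SN-011 samples, without overlap. The 5 gastric gland markers summed to 19703 to 57713 CPM in the controls and 13859 to 71447 CPM in the SN-011 samples, with overlap. The part of tissue composition in these values was not tested, and in bulk samples more cells of a type cannot be told apart from more RNA per cell.

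Counted over all members, 1 of 10 had every SN-011 sample above every control sample by CPM in heart (14.1% of all genes), 2 in stomach (17.8%), 2 in muscle (14.7%) and 1 in tongue (9.4%). Gm7993 was the only member below in the heart (13.1% of all genes), the stomach (15.2%) and the tongue (8.38%), and in the muscle Oaz2 was below as well (19.8%). These counts describe genes chosen with the values known, and nothing is read from them.

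The difference between tissues in the SN-011 effect was taken from the joint fit of all samples, for 6 pairs of tissues. Between stomach and muscle 3 of the 10 members, Oaz2, Odc1 and Gm7993, passed an adjusted p of 0.05, as did 6.95% of 19731 genes. For Oaz2 the stomach value exceeded the muscle value by 1.56 ± 0.28 on the log2 scale (SE), and for Odc1 the difference was −1.71 ± 0.40. None of the members passed between heart and stomach (2.01% of all genes), stomach and tongue (0.821%), muscle and tongue (0.0355%), heart and muscle (0.00507%) or heart and tongue (0.0%). At an unadjusted p under 0.05 there were 1, 2, 2, 4 and 0 members in these 5 pairs, beside 17.0%, 15.4%, 8.1%, 6.6% and 2.83% of all genes. DESeq2 called Oaz2 between heart and stomach (7.1% of all genes) and between stomach and tongue (5.19%), the same 3 members between stomach and muscle (14.7%), and none in the other pairs (0.0557% to 0.755%). The members were chosen with these differences known.

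**Figure D4:**
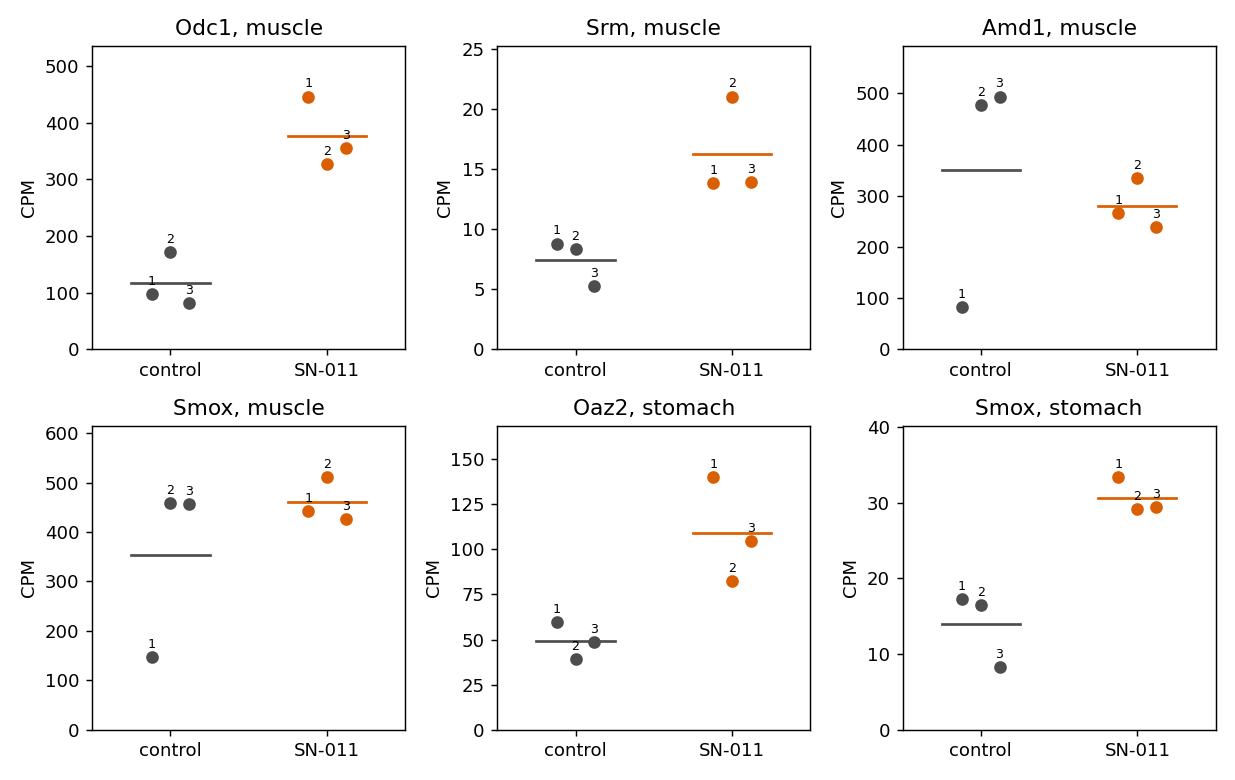
CPM per sample (linear axes from 0) of Odc1, Srm, Amd1 and Smox in the muscle and of Oaz2 and Smox in the stomach, with the replicate number beside each point and a line at each group mean. Control replicate 1 stands far below the other muscle controls for Amd1 and Smox, whereas for Odc1 the 3 SN-011 samples lie at 327 to 446 CPM, above all controls.

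The wider pathway was followed in 6 lists with 45 genes, of which 39 passed the filter on low counts in heart, 39 in stomach, 36 in muscle and 38 in tongue. None was past an adjusted p of 0.05 in any tissue by the quasi-likelihood test. At an unadjusted p under 0.05 there were 13, 13, 8 and 7, beside 22.4%, 24.6%, 14.8% and 12.5% of all genes. The exact test called 4, 7, 3 and 1, beside 5.68%, 10.8%, 3.37% and 1.53% of all genes, and DESeq2 called 6, 10, 6 and 2, beside 8.43%, 14%, 6.2% and 2.52%. The median log2 fold change of the tested genes was −0.08, −0.02, −0.11 and −0.01 in heart, stomach, muscle and tongue, beside −0.01, 0.00, −0.08 and −0.01 over all genes. Without muscle SN-011 replicate 2, 3 of 38 genes tested were called in the muscle, all higher, where 7.4% of all genes were called under the same omission. The 3 are named here after their values were seen. They were the cationic amino acid transporter Slc7a2, at 58.2 CPM in the controls and 154 CPM in the 3 SN-011 samples (log2 fold change 1.40 ± 0.37), Mnt, a Max-binding repressor, at 14.3 and 31.3 CPM (1.13 ± 0.23), and Arg1, arginase, at 1.78 and 13.1 CPM (2.88 ± 1.08) with overlapping groups.

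Among the other polyamine enzymes and regulators (6 genes, of which 3 or 4 were tested in each tissue), Azin2, a second antizyme inhibitor, was at 3.37 CPM in stomach controls and 11.9 CPM after SN-011, a log2 fold change of 1.82 ± 0.44. Azin2 was at −0.55 ± 0.21 in the heart, −0.58 ± 1.25 in the muscle and −0.22 ± 0.22 in the tongue. In the muscle it had 50, 43 and 61 counts in the controls and 45, 0 and 44 after SN-011. The 0 was in SN-011 replicate 2, the sample with counts on the fewest genes. Paox, which oxidizes acetylated polyamines, ranged from −0.21 to 0.28. Oaz3, the antizyme of the testis, had at most 20 counts in any sample and did not pass the filter. Sat2, related to Sat1 by sequence, was at 2.88 to 5.48 CPM in controls. Of the genes of arginine and ornithine supply (9 genes), Oat, ornithine aminotransferase, was at 118 to 222 CPM in controls, with log2 fold changes of −0.02 to 0.37. Slc7a1, a cationic amino acid transporter, was at −0.96 ± 0.30 in the stomach, −0.23 ± 0.16 in the heart, −0.44 ± 0.38 in the muscle and −0.09 ± 0.22 in the tongue. Ass1, argininosuccinate synthase, was at 0.78 ± 0.29 in the stomach, −0.64 ± 0.27 in the heart, −0.48 ± 1.30 in the muscle and 0.42 ± 0.14 in the tongue. Its muscle counts were 62, 23 and 73 in the controls and 45, 0 and 52 after SN-011, the 0 again in replicate 2.

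In the list of S-adenosylmethionine supply and methylthioadenosine salvage (8 genes), Adi1, an enzyme of the salvage arm, was another of the 90 genes with every SN-011 sample below every control sample in all 4 tissues, with log2 fold changes of −0.60 ± 0.15 in heart, −1.77 ± 0.30 in stomach, −0.64 ± 0.17 in muscle and −0.63 ± 0.16 in tongue. Mat2a, the methionine adenosyltransferase of most tissues, was at 0.53 ± 0.16 in the heart, −0.43 ± 0.15 in the muscle, −0.20 ± 0.27 in the stomach and 0.23 ± 0.23 in the tongue. Its regulatory partner Mat2b was at −0.42 ± 0.14 in the muscle, −0.60 ± 0.23 in the stomach, 0.05 ± 0.12 in the heart and −0.09 ± 0.13 in the tongue. For hypusine formation (4 genes), which uses spermidine to modify the translation factor Eif5a, Eif5a itself ranged from −0.48 to 0.29, Dhps from −0.12 to 0.14 and Dohh from 0.15 to 0.50. Of the transport genes (8 genes), Slc3a2 was at 0.83 ± 0.22 in the muscle, 0.24 ± 0.13 in the heart, 0.09 ± 0.35 in the stomach and 0.20 ± 0.12 in the tongue. Atp13a2, a lysosomal polyamine exporter, was at 0.69 ± 0.20 in the stomach, 0.07 ± 0.16 in the heart, 0.13 ± 0.10 in the muscle and 0.10 ± 0.22 in the tongue. Atp13a3 ranged from −0.41 to −0.02.

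In the Myc network (10 genes), whose founding member is a known activator of Odc1, Myc was at 0.61 ± 0.38 in the muscle, where it had 5.49 CPM in controls and 8.35 CPM after SN-011 with overlapping groups, and at −0.27 to 0.06 in the other tissues. Its partner Max was at 0.59 ± 0.11 in the heart and 0.89 ± 0.34 in the muscle, without overlap in either. Max was at −0.11 ± 0.23 in the stomach and −0.12 ± 0.12 in the tongue, with overlap in both. Mxd1 and Mxd4, which compete for Max, ranged from −0.96 to 0.40 and from 0.09 to 0.47.

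The genes most like Odc1 and Gm7993 were sought by Pearson's r of log2 CPM over the 24 samples after subtracting each tissue's mean, among 7334 genes with a mean of at least 10 CPM in every tissue. For Odc1 they were Uhrf1bp1l (r = 0.81), Zwint (0.80), Slc39a14 (0.80), Sra1 (0.79) and Tgif1 (0.76), and the closest member was Srm (0.54). For Gm7993 they were Rsad2 (0.91), Gm6472 (0.90), Lcp1 (0.89), Parp9 (0.89) and Ifi47 (0.89), whereas Odc1 was at −0.39. The values of Gm7993 fall into a control and an SN-011 cluster, so its order of genes mostly ranks the difference between these groups, and samples of different tissues may come from the same mouse. Odc1 differed between the groups mainly in the muscle, so its order may largely rank that difference, which was not tested.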

How the data were processed

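RNA-Seq of 24 tissue samples was used. The authors deposited read counts per Ensembl gene for each sample, not normalized. The labels name HISAT2, HTSeq and mm10, while the study's methods name HISAT2, Trimmomatic and featureCounts on uniquely mapped pairs with a strand-specific kit, and versions are not given in the sources used here. Reads that fit Odc1 and its copies equally well are not counted under unique mapping. The members and lists were chosen with earlier results of these data known. Symbols, positions and sequences came from GENCODE M21 (GRCm38), which matched 54495 of 54532 identifiers.

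Within each tissue, genes were filtered with filterByExpr (minimum count 10, total 15), scaled with TMM and fitted with edgeR 4.0.16 (R 4.3.3) by quasi-likelihood, with Benjamini-Hochberg adjustment and a threshold of 0.05. A joint fit of all 24 samples gave the tissue comparisons and the differences between tissues. CPM are counts scaled by TMM library size, and ± after a mean is the SD of 3 samples. Alternatives used edgeR's exact test, DESeq2 1.42.0, other scalings, no filter, a replicate block and leaving out samples. The block went by sample number within a tissue, and by treatment and number in the joint fit. Copies were found with BLAST 2.17.0 and aligned with Biopython 1.88. The fits were tested on simulated data with the same dispersion for every gene, which does not show how they perform at the spread of these samples. All members were named. From the pathway lists, any gene called by the quasi-likelihood test, Azin2, Paox, Oaz3, Myc and up to 3 genes per list by CPM were named.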

Additional observations from a re-analysis of the deposited data

Results flagged for a closer look

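For 3 of the 10 genes the effect of SN-011 differed between stomach and muscle in the joint edgeR fit of all samples (adjusted p of 0.05 over 19731 genes), where 6.95% of all genes differed. The members were chosen with these values known, so the differences are given as descriptions. The log2 fold change in the stomach minus that in the muscle was 1.56 ± 0.28 (SE) for Oaz2, whose SN-011 samples lay above the controls in the stomach and below them in the muscle. It was −1.71 ± 0.40 for Odc1, which stood higher in the muscle and overlapped in the stomach. It was −5.10 ± 1.26 for Gm7993, which was lower in both tissues, but the fitted value rests on 1 SN-011 count in the stomach and depends on the prior count. Without the samples numbered SN-011 replicate 1 in all tissues none of the 10 genes passed (9 of 20254 genes in all). Without those numbered SN-011 replicate 3 only Oaz2 did (186 of 20307). Without those numbered control replicate 2 Oaz2 and Odc1 did (174 of 20381). The stomach squamous markers, given above, lay apart between the groups, whereas the muscle adipocyte markers overlapped between them, and the part of either in these differences was not tested.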

How the results depend on the processing

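The number of members past the threshold depended on the test. In the stomach it was 0 by the quasi-likelihood test (0 of 17031 genes in all). It was 3 by the exact test (1835 of 17031), without a filter (1368 of 27444) and by DESeq2 (2389 of 17031). The joint fit gave 2 (2738 of 19731) and a replicate block 1 (181 of 17031). In the muscle it was 0 (2 of 14198 genes), with 2 by the exact test (479 of 14198) and without a filter (110 of 25956). DESeq2 gave 4 (880 of 14198) and the joint fit 3 (474 of 19731). In the tongue it was 0 (0 of 16587 genes). It was 1 by the exact test (253 of 16587), without a filter (18 of 28210), by DESeq2 (418 of 16587) and in the joint fit (4 of 19731). Leaving out 1 sample gave 0 to 1 in stomach (0 to 64 genes in all), 0 to 2 in muscle (0 to 1103) and 0 to 2 in tongue (0 to 2135). In the heart the number of members stayed at 1 (1 to 787 genes). Of these single omissions, Gm7993 and Odc1 were called in the muscle only without SN-011 replicate 2 (1103 of 14903 genes). Gm7993 and Srm were called in the tongue only without control replicate 1 (2135 of 17142). In the stomach Gm7993 was called only without control replicate 1 (64 of 17959) or SN-011 replicate 2 (59 of 17877). Nothing is read from these counts of members, which were chosen with the values known.

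Differences between tissues in the SN-011 effect were past the threshold for 3 values, 5 by DESeq2, and 0 to 5 when 1 replicate number was left out. By pair of tissues, 0% to 6.95% of all genes were called in the main fit and 0.0557% to 14.7% by DESeq2. For stomach against muscle, 1372 of 19731 genes were called in the main fit and 2895 by DESeq2. Under these omissions 9 of 20254 to 2233 of 20337 genes were called for that pair. Summing the pseudogene counts with Odc1 gave −0.61 in the stomach and −0.23 in the tongue. With the longest transcript as length, Sat1 ranked 2, Oaz2 3, Smox 4, Amd1 5, Sms 8 and Srm 9 among the members. The cause of these shifts was not tested, apart from the counts added and the lengths used. The tissue comparisons gave 36 calls of members, where 29.1% to 51.6% of all genes were called by pair in the main fit. Members had 35 to 36 calls under other settings and 25 to 36 when samples were left out. The shares over all genes under these alternatives are not given here, and nothing is read from the totals.

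Over all genes the calls were 137 in heart (1 to 1888 under other settings and 1 to 787 when a sample was left out), 0 in stomach (0 to 2738 and 0 to 64), 2 in muscle (0 to 880 and 0 to 1103) and 0 in tongue (0 to 418 and 0 to 2135). The replicate block, which within a tissue ties the control and SN-011 samples of the same number, gave 242, 181, 0 and 0. Same-numbered control and SN-011 samples did not deviate together: of 12 pairs 1 had a correlation over 0.1, with a range of −0.37 to 0.27 over 6721 genes, so the numbers were not taken as pairs. Of the 40 member log2 fold changes, 21 kept their sign in all 13 alternatives. Library size without TMM shifted the median of all genes by −0.15, 0.17, −0.23 and 0.08 in heart, stomach, muscle and tongue. At these depths a gene under 0.163 to 0.210 CPM could not be told from 0.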

Other observations

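The other Odc1 pseudogenes did not share the size of the Gm7993 difference. The 18 of them, 84.4% to 97.8% identical to Odc1, had 779 counts in the 12 control samples and 580 in the 12 SN-011 samples, and 12 of the 18 had under 20 counts in all. By tissue, control and SN-011 counts were 111 and 92 in heart, 450 and 330 in stomach, 119 and 84 in muscle and 99 and 74 in tongue. Gm9260, on chromosome 12 and 92.2% identical to Gm7993, had 102 counts in control samples, 3 to 27 per sample, and 8 in SN-011 samples, 0 to 4 per sample. Gm9115, on chromosome X and the closest to Gm7993 at 95.6%, had 81 and 75 counts. Gm7450 had 363 and 212, Gm17709 had 147 and 180, Rps7-ps2 had 47 and 67 and Gm12846 had 23 and 26. AW146154, a protein-coding gene 92.2% identical to Odc1 over 913 bases, had 1390 and 1370.

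Within 250 kb of Gm7993 there were 4 genes with at least 100 counts, of which Cnot6l had fitted values below 0 in all 4 tissues and the others were above 0 in some. Cxcl13, a chemokine gene 13172 bases away, had log2 fold changes of −0.22 ± 0.89 in heart, −1.37 ± 0.93 in stomach, 2.38 ± 1.47 in muscle and 1.30 ± 0.67 in tongue. The pseudogene Gm5559 was at −0.04 to 0.68, Cnot6l, a deadenylase subunit, at −0.70 to −0.07, and Mrpl1, a mitochondrial ribosomal protein, at −1.20 to 0.29.

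Arginase, which makes the ornithine that Odc1 uses, was the pathway gene that had the largest fitted difference in the stomach and is named after its values were seen. Arg1 had 27, 35 and 85 counts in the control samples and 1208, 149 and 732 in the SN-011 samples of the stomach, a log2 fold change of 3.81 ± 0.70, with the squamous markers given above differing in the same samples. In the tongue Arg1 had 62, 634 and 1519 counts in the control samples and 395, 308 and 512 in the SN-011 samples, at −0.89 ± 0.89 with overlapping groups. The part of squamous epithelium in the Arg1 values of either tissue was not tested.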
